A study of Mus musculus with 6 samples.

Results

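Neutrophils load their granules in an order set by their maturation: primary granules fill first, secondary (specific) granules next, and tertiary (gelatinase) granules last, so the cargo of a granule follows the time at which its genes are transcribed. Lactoferrin, lipocalin and cathelicidin genes are textbook markers of the secondary granule, gelatinase marks the tertiary granule, and the transcription factor C/EBP-epsilon is required for secondary granule genes in mouse. The gene group described here holds 10 genes of secondary and tertiary granules and of the cells that carry them, namely Ltf, Lcn2, Ngp, Camp, Mmp8, Mmp9, Chil3, Cybb, Ltb4r1 and Cebpe. They were taken by gene symbol from a table of 55573 genes, each matched 1 row, and all 10 passed the filter on low counts that left 16493 genes for testing.

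The RNA came from 3 Abcc4-/- and 3 wild-type (WT) samples whose labels give megakaryocytes, which shed platelets, as the cell type and whose titles contain CD41, an integrin on the surface of those cells. Abcc4 is the gene of a transporter that pumps cyclic nucleotides and thiopurines out of cells; the series title speaks of megakaryocyte formation and of 6-mercaptopurine, but no sample is labelled as treated. The question is how transcript levels differ between the genotypes. The design text counts 3 mice in each group, while the sample labels name no animal and give no strain, age, sex, allele design or way of selecting cells.

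The libraries held 67009925 to 99294493 counts in Abcc4-/- and 50440239 to 55123512 counts in WT, and the Abcc4-/- libraries were 1.55-fold deeper on average. Abcc4 itself stood at 60.1 to 62.3 CPM (counts scaled to library size) in Abcc4-/- and at 71.8 to 75.7 CPM in WT; the values cover the whole gene and do not check which part was deleted. The 12 megakaryocyte and platelet markers listed for this comparison were all detected, and together reached 198 to 237 CPM in Abcc4-/- and 286 to 343 CPM in WT. The 10 granule genes together reached 20604 to 21958 CPM in Abcc4-/- and 11792 to 14513 CPM in WT, so neutrophil granule transcripts outweighed platelet transcripts in all 6 libraries, against the cell type label. In such bulk samples, fewer cells of a type and less RNA per cell cannot be told apart.

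In the GRCm38 annotation (GENCODE M21) 3 of the genes lie on the same stretch of chromosome 9, Camp at 109847379 to 109849617 on the minus strand, Ngp at 110419747 to 110423012 on the plus strand and Ltf at 111019271 to 111042767 on the plus strand. Mmp8 lies far from them on chromosome 9 (7558456 to 7568485, plus strand). Lcn2 (32384633 to 32388252, minus strand) and Mmp9 (164940780 to 164955850, plus strand) are on chromosome 2, Chil3 is on chromosome 3 (106147554 to 106167564, minus strand) and Cybb on the X chromosome (9435252 to 9487771, minus strand). Ltb4r1 (55765962 to 55768494, plus strand) and Cebpe (54710360 to 54712174, minus strand) are on chromosome 14, the chromosome of Abcc4, at 62.7 and 63.8 Mb from it. None of the 10 overlaps another annotated gene, and the estimated counts were whole numbers (within 0.001) for 9 of them. Chil3 alone had fractional counts, which arise where reads are shared with another gene. Its relative Chil4 had at most 1 count in an Abcc4-/- library and 4 in a WT library, and Chil6 at most 5 and 1. Chil5 had at most 713 and 218 counts, and Chil1 at most 21694 and 6358. Which gene shared reads with Chil3 was not examined.

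The stretch of chromosome 9 from Camp to Ltf spans 1.2 Mb and holds 23 tested genes. Camp, Ngp and Ltf were higher in Abcc4-/- (values below), whereas of the other 20 genes 0 rose and 1 fell (Ptpn23, a phosphatase gene named after its value was seen, log2 fold change -0.27, SE 0.07; edgeR, adjusted p = 0.0238), with a median log2 fold change of 0.005.

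RefSeq promoters (GRCm38.p6) were available for 8 of the 10 genes, and the 250 bases before the start were searched for the C/EBP-type motif TTNNGCAA on both strands. It was found in 4 of the 8, Ltf, Lcn2, Ngp and Mmp8, while Camp, Chil3, Cybb and Ltb4r1 had no match. Those 4 are among the genes of larger increase described next, but so is Camp. Mmp9, also of larger increase, had no promoter to search. A relation between the motif and the size of the increase was not tested. Of 32851 promoters of the same length 9.56% held it. The ETS-type motif GAGGAA, whose matches overlapped none of the first, was found in 4 of the 8 (Ltf, Lcn2, Mmp8 and Ltb4r1) and in 23.3% of all promoters. A match describes letters and is not a bound site. The promoters that held TTNNGCAA are printed 5′ to 3′ on the gene's strand, with the matches in capitals, and the Cybb promoter is set beside them as one without a match. They lie at chr9:111019042-111019291 (Ltf, plus), chr2:32387740-32387989 (Lcn2, minus), chr9:110419558-110419807 (Ngp, plus), chr9:7558179-7558428 (Mmp8, plus) and chrX:9469325-9469574 (Cybb, minus).
Ltf: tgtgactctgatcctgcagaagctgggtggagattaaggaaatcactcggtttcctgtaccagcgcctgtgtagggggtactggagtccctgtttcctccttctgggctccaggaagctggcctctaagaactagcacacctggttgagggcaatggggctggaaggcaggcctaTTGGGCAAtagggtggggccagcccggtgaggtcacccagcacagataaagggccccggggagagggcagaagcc
Lcn2: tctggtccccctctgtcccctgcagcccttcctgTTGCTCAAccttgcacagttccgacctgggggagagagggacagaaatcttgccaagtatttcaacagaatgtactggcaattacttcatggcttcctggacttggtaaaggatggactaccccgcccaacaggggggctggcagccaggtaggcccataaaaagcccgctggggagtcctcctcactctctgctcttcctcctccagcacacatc
Ngp: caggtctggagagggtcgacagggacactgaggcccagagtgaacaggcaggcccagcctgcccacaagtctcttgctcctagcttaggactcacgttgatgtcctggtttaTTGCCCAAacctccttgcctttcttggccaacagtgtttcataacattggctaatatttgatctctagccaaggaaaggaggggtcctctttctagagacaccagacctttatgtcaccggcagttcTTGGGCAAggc
Mmp8: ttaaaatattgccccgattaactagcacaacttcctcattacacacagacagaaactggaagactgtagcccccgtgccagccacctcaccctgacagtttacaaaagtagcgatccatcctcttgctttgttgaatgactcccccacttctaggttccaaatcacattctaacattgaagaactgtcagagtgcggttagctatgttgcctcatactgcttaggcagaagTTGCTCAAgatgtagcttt
Cybb: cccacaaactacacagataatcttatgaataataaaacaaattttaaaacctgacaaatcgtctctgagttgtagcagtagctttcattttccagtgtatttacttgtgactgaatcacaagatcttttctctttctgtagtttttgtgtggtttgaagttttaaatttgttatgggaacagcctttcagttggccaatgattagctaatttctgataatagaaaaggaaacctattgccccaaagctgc

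The Ltf match lies 75 to 68 bases before the start, the Lcn2 match 216 to 209, the Mmp8 match 19 to 12, and the Ngp matches 138 to 131 and 11 to 4 bases before it. The start is that of RefSeq, which can lie inside the gene as annotated in GENCODE. The Lcn2 and Cybb promoters lie wholly inside the annotated gene. Those of Ltf and Ngp reach into it, and the Ngp match nearest the start falls there. Ltf and Ngp share the letters TTGGGCAA, and Lcn2 and Mmp8 share TTGCTCAA.

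Most secondary and tertiary granule genes were higher in Abcc4-/-. By edgeR's quasi-likelihood test with Benjamini-Hochberg adjustment over all 16493 genes, 8 of the 10 rose at an adjusted p of 0.05 and 0 fell, where 8.61% of all genes tested rose, 8.68% fell and 17.3% did either. Their median log2 fold change was 0.73, against 0.00091 over all genes tested. In CPM the Abcc4-/- libraries lay above all WT libraries for 10 of 10 genes, as they did for 18.4% of all genes, and below them for 0 of 10, against 18.3% of all genes. The Abcc4-/- libraries also lay above in TPM (abundance scaled by transcript length and to a fixed library total) for 7 of 10, against 9.46% of all genes. The genes were chosen with earlier results of these data known, so these counts describe them and carry no test of the group. Summed, the 10 genes took 2.13 ± 0.0526% of counts in Abcc4-/- and 1.32 ± 0.136% in WT (SD, n = 3 each). Over all genes, 49.8% of calls were higher in Abcc4-/-; limma on log2(TPM + 1) gave 28.7%, and the same scale after centring on library medians gave 57.0%.

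**Figure D1:**
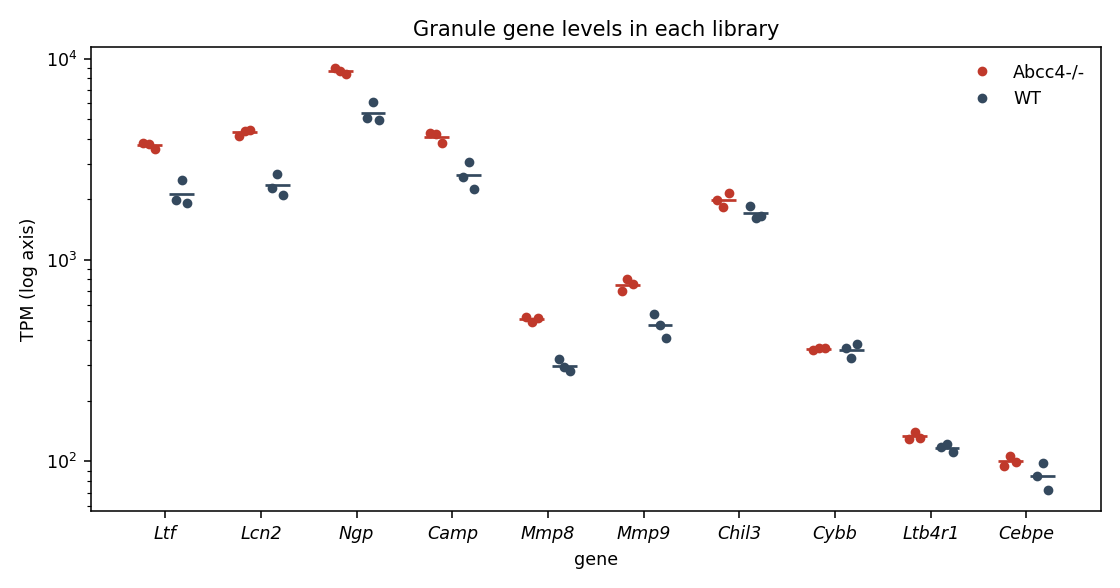
TPM on a log axis of the 10 genes in each library, with Abcc4-/- (red, left) and WT (dark, right) beside each other; points are libraries and bars are means of 3. The Abcc4-/- points lie above all WT points for Ltf, Lcn2, Ngp, Camp, Mmp8, Mmp9 and Ltb4r1, and the groups overlap for Chil3, Cybb and Cebpe.

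Among the antimicrobial cargo, Ltf encodes lactoferrin, the iron-binding protein of the secondary granule. Its level was 3792, 3759 and 3571 TPM in Abcc4-/- libraries 1 to 3, against 1986, 2485 and 1920 TPM in WT libraries 1 to 3. The groups did not overlap, and the nearest pair was Abcc4-/- replicate 3 and WT replicate 2. Ltf rose 1.83-fold (log2 fold change 0.87, SE 0.10; edgeR, adjusted p = 0.000285).

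Lcn2 encodes neutrophil gelatinase-associated lipocalin, which binds the siderophores that bacteria use to take up iron. It had 4106, 4375 and 4403 TPM in the Abcc4-/- libraries, against 2288, 2658 and 2095 TPM in the WT libraries. Every Abcc4-/- library lay above every WT library, and WT replicate 2 was the nearest. With 1.92-fold (log2 fold change 0.94, SE 0.10; edgeR, adjusted p = 0.000164) it had the largest estimate of the 10 genes, and its interval of 0.73 to 1.15 overlapped those of the next 5.

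Ngp encodes neutrophilic granule protein, a relative of the cathelicidins, and was the most abundant of the 10. Its level was 8929, 8711 and 8379 TPM in Abcc4-/- and 5044, 6065 and 4976 TPM in WT. That placed it between the 7th and the 11th most abundant gene in each library. The groups stood apart, and Ngp rose 1.70-fold (log2 fold change 0.77, SE 0.09; edgeR, adjusted p = 0.000393).

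Camp encodes the precursor of the mouse cathelicidin peptide CRAMP, which kills bacteria after it is cut from its carrier domain. It had 4254, 4208 and 3820 TPM in Abcc4-/- and 2571, 3066 and 2262 TPM in WT, without overlap. Camp rose 1.63-fold, with the widest error among the 6 genes of larger change (log2 fold change 0.71, SE 0.13; edgeR, adjusted p = 0.0109). With no filter on low counts its adjusted p was 0.0500306, just past the threshold, at a log2 fold change of 0.71.

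Both matrix proteases rose. Mmp8, the neutrophil collagenase stored in secondary granules, had 523, 490 and 517 TPM in Abcc4-/- and 324, 293 and 279 TPM in WT. It rose 1.80-fold with the smallest adjusted p of the 10 (log2 fold change 0.85, SE 0.07; edgeR, adjusted p = 2.41e-05). Mmp9, the gelatinase that names the tertiary granule, had 701, 801 and 758 TPM in Abcc4-/- and 539, 475 and 410 TPM in WT. The groups did not overlap for either gene, and Mmp9 rose 1.68-fold (log2 fold change 0.74, SE 0.11; edgeR, adjusted p = 0.00184).

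Chil3 encodes Ym1, a chitinase-like lectin made by maturing neutrophils and also by macrophages. It had 1986, 1825 and 2159 TPM in Abcc4-/- and 1857, 1620 and 1651 TPM in WT. Here Abcc4-/- replicate 2 lay below WT replicate 1, so the groups overlapped in TPM, though not in CPM (1762 to 2052 in Abcc4-/- and 1457 to 1718 in WT). Chil3 rose 1.23-fold on counts (log2 fold change 0.30, SE 0.08; edgeR, adjusted p = 0.0217). The call was lost without WT replicate 2 or 3 (adjusted p = 0.0710 and 0.0602), without Abcc4-/- replicate 1 or 3 (0.0892 and 0.0705), and by limma on the 3 TPM scales (0.0800 to 0.113).

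Cybb and Ltb4r1, the genes of membrane proteins in this group, had smaller estimates. Some genes of membrane proteins outside the group, such as Fpr1 and Fpr2 (values below), had larger ones. Cybb encodes gp91phox, the catalytic subunit of the NADPH oxidase, which sits in the membrane of secondary granules and is also made by monocytes and macrophages. It had 356, 366 and 367 TPM in Abcc4-/- and 366, 327 and 382 TPM in WT, with overlapping groups. The difference did not pass (log2 fold change 0.11, SE 0.06, 95% interval -0.02 to 0.24; edgeR, adjusted p = 0.249), and the interval leaves out a change as large as that of Chil3. Ltb4r1 encodes BLT1, the receptor through which the lipid leukotriene B4 attracts neutrophils. Its level was 129, 141 and 131 TPM in Abcc4-/- and 118, 121 and 111 TPM in WT, close but without overlap. Ltb4r1 rose 1.20-fold (log2 fold change 0.27, SE 0.06; edgeR, adjusted p = 0.0130), and lost its call without Abcc4-/- replicate 2 (adjusted p = 0.0667) and on log2(TPM + 1) and log2(TPM + 0.1) (0.0509 and 0.0515).

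Cebpe encodes C/EBP-epsilon, the transcription factor of granulocyte maturation, and was the least abundant of the 10. It had 94.9, 107 and 99.7 TPM in Abcc4-/- and 84.6, 98.5 and 71.9 TPM in WT. WT replicate 2 lay above Abcc4-/- replicate 1, and WT replicate 3 lay well below the rest. The log2 fold change of 0.31 (SE 0.13, 95% interval 0.0024 to 0.62) did not pass in edgeR (adjusted p = 0.159). It passed with DESeq2's Wald test (adjusted p = 0.0225) and without WT replicate 2, where the log2 fold change was 0.45 (adjusted p = 0.0131).

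**Figure D2:**
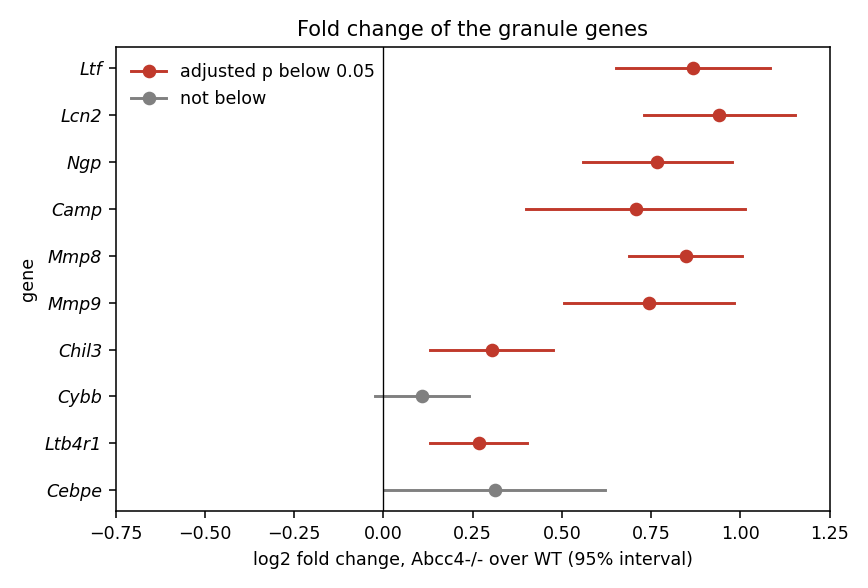
Log2 fold change of Abcc4-/- over WT for each gene with its 95% interval from the edgeR fit; red marks an adjusted p below 0.05 and grey the others. The 6 genes from Ltf to Mmp9 lie between 0.71 and 0.94, and the other 4 between 0.11 and 0.31.

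The 10 genes comprised 6 with a log2 fold change above 0.5, all of them soluble cargo or proteases, and 4 below it (Chil3, Cybb, Ltb4r1 and Cebpe). The lectin encoded by Chil3 is soluble too, so this class does not divide the genes. The log2 fold change of each of the 6 exceeded that of at least 95% of all genes tested (0.57). The order of levels was nearly the same in both genotypes. In Abcc4-/- it ran Ngp, Lcn2, Camp, Ltf, Chil3, Mmp9, Mmp8, Cybb, Ltb4r1 and Cebpe, and of these neighbours only Lcn2 and Camp had overlapping ranges in TPM. In WT it ran Ngp, Camp, Lcn2, Ltf, Chil3, Mmp9, Cybb, Mmp8, Ltb4r1 and Cebpe, and the neighbours Camp and Lcn2, and Lcn2 and Ltf, had overlapping ranges. Mmp8 and Cybb stood in opposite order: Mmp8 averaged 510 ± 17.8 TPM and Cybb 363 ± 6.32 TPM in Abcc4-/-, while Mmp8 averaged 299 ± 22.7 TPM and Cybb 358 ± 28.3 TPM in WT (SD, n = 3 each).

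The SD of log2 CPM over 3 libraries was larger in WT than in Abcc4-/- for 10 of 10 genes, by much for Lcn2 (0.03 in Abcc4-/- and 0.22 in WT) and by little for Chil3 (0.11 in Abcc4-/- and 0.12 in WT). In TPM the SD was larger in Abcc4-/- for Chil3 (167 TPM in Abcc4-/- and 129 TPM in WT) and for Ltb4r1 (6.13 TPM in Abcc4-/- and 5.28 TPM in WT). WT replicate 3 was the lowest WT library for 9 of the 10 genes. The highest WT library was replicate 2 for Ltf, Lcn2, Ngp, Camp, Ltb4r1 and Cebpe, and replicate 1 for Mmp8, Mmp9, Chil3 and Cybb. The genes come from the same libraries and are not separate observations of this spread, which was not tested. The share of all genes tested with the larger SD in WT was not counted.

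**Figure D3:**
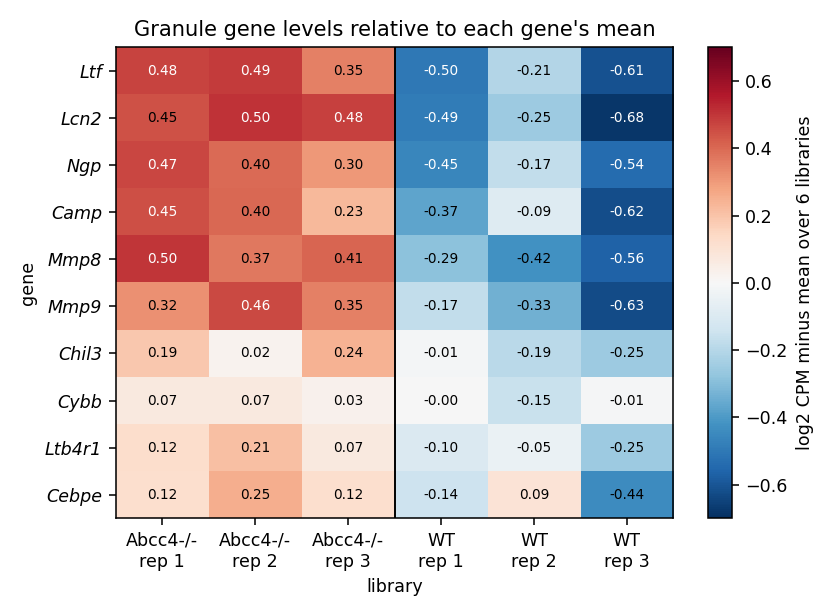
Log2 CPM of each gene minus its mean over the 6 libraries, with Abcc4-/- libraries on the left and WT on the right of the line. Ltf, Lcn2, Ngp, Camp, Mmp8 and Mmp9 are above their mean in all 3 Abcc4-/- libraries and below it in all 3 WT libraries, with WT replicate 3 lowest; Cebpe is above its mean in WT replicate 2.

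Ratios of counts within a library do not depend on how libraries are scaled. They were formed for each gene over Cybb, over the primary granule gene Mpo and over the calgranulin gene S100a8, which mature neutrophils express strongly; these 3 were chosen after their values were seen. Over Cybb, the ratio was higher in every Abcc4-/- library than in any WT library for the 6 genes of larger change and overlapped for Chil3, Ltb4r1 and Cebpe. The ratio of Ltf to Cybb was 3.44 ± 0.119 in Abcc4-/- and 2.05 ± 0.430 in WT. Over Mpo the ratio was higher in this way for 10 of 10 genes, and Camp over Mpo was 0.519 ± 0.0492 in Abcc4-/- and 0.265 ± 0.0339 in WT (SD, n = 3 each). Mpo was itself lower in Abcc4-/- (log2 fold change -0.25), which raises every ratio over it. In CPM, Mpo lay lower and each of the 10 genes higher in every Abcc4-/- library than in any WT library. The outcome over Mpo was therefore fixed in advance and adds nothing to the CPM result. S100a8 was itself higher (log2 fold change 0.86), which lowers every ratio over it. The share of all genes with such ratios over Cybb, Mpo or S100a8 was not counted.

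Over S100a8 no ratio was higher in every Abcc4-/- library than in any WT library, and the largest log2 difference was 0.08, for Lcn2. The groups overlapped for the 6 genes of larger change, with 0.515 ± 0.0198 for Ltf in Abcc4-/- and 0.514 ± 0.0488 in WT (exact permutation test, two-sided p = 0.9, adjusted p = 0.9). For Chil3, Cybb, Ltb4r1 and Cebpe the ratio was lower in every Abcc4-/- library, as in Cebpe, where it was 0.00971 ± 0.000724 in Abcc4-/- and 0.0141 ± 0.000834 in WT (SD over 3 libraries). Its exact permutation test gave a two-sided p of 0.1. That p of 0.1 is the smallest that 3 against 3 allows, and all ratios without overlap had it (adjusted p = 0.145 over 29 ratios).

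**Figure D4:**
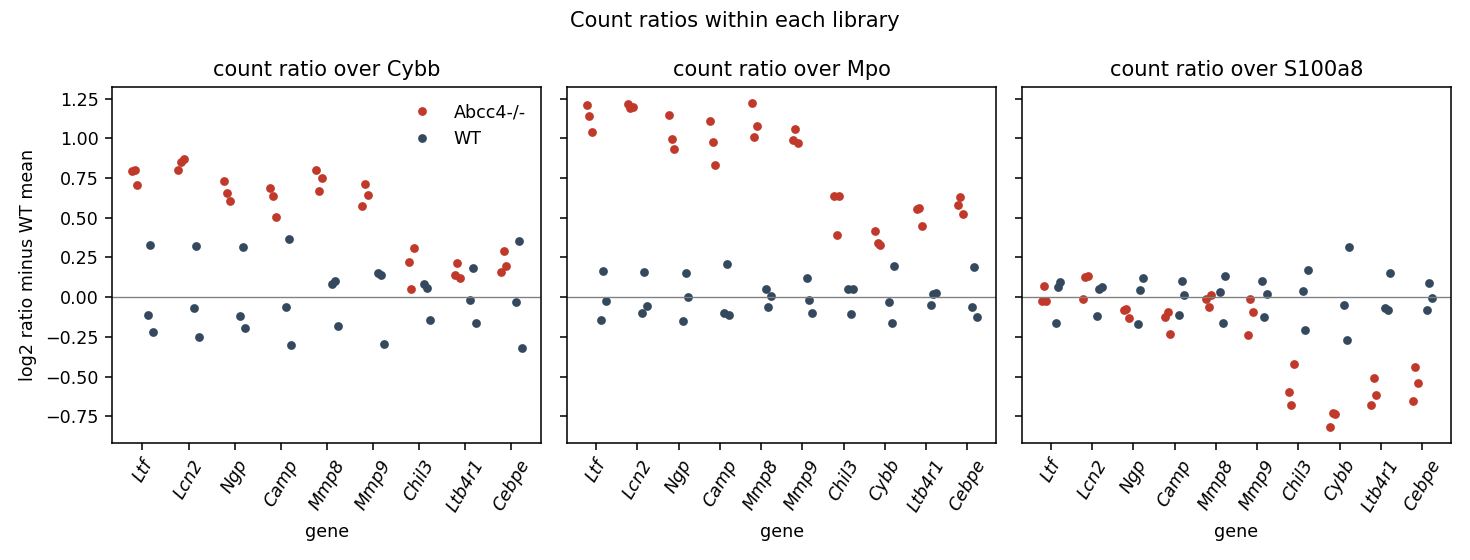
Log2 count ratio of each gene over Cybb, Mpo and S100a8 in each library, minus the WT mean, with Abcc4-/- (red, left) beside WT (dark, right). Over S100a8 the 6 genes from Ltf to Mmp9 overlap between genotypes and the other 4 are lower in Abcc4-/-, while over Mpo all 10 are higher.

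Among other genes of these granules, those that passed the test were higher in Abcc4-/-. Of 13 further genes of specific, gelatinase and secretory granules, 7 rose and 0 fell, with a list median of 0.49. The formyl peptide receptor genes Fpr1 and Fpr2, which sense bacterial peptides, had 93.3 ± 4.08 CPM in Abcc4-/- and 47.7 ± 5.85 CPM in WT for Fpr1 (1.96-fold; edgeR, adjusted p = 5.48e-05), and 153 ± 5.29 CPM in Abcc4-/- and 79.0 ± 11.1 CPM in WT for Fpr2 (1.94-fold, adjusted p = 0.00032). Cd177, a neutrophil surface protein of secondary granules, rose 1.62-fold (940 ± 45.5 CPM in Abcc4-/- and 581 ± 58.1 CPM in WT; edgeR, adjusted p = 0.000133). The lysozyme gene Lyz2, shared by all granule types and by macrophages, was picked after its value was seen; its log2 fold change of 0.05 did not pass (adjusted p = 0.729).

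Genes of the primary granule list showed no common direction. The list holds Serpinb1a, the gene of a protease inhibitor and not of granule cargo. Without passing the test, Elane, Prtn3, Cd63 and Ctsc had negative estimates and Ctsg and Gusb positive ones. Of 8 tested, 1 rose and 1 fell, with a median log2 fold change of -0.04; Bpi had at most 5 counts in a library and was not tested. Serpinb1a, an inhibitor of neutrophil serine proteases, rose 1.29-fold (257 ± 7.84 CPM in Abcc4-/- and 199 ± 18.9 CPM in WT; edgeR, adjusted p = 0.00368). Mpo, the myeloperoxidase of the primary granule, fell 1.19-fold (3471 ± 98.7 CPM in Abcc4-/- and 4141 ± 363 CPM in WT; edgeR, adjusted p = 0.0350). The Mpo call was lost when any library but WT replicate 3 was left out (adjusted p = 0.0755 to 0.137) and on centred TPM (0.189), and without WT replicate 3, 2 of the 8 fell.

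Partners of the individual proteins were counted in the same way. Of 6 partners of Cybb in the NADPH oxidase, 4 rose and 0 fell (median log2 fold change 0.26), although Cybb did not pass. Ncf1, an organizing subunit of the oxidase, had 778 ± 26.4 CPM in Abcc4-/- and 616 ± 28.2 CPM in WT (1.26-fold; edgeR, adjusted p = 0.00245). Cybc1, a chaperone of the gp91phox complex, rose 1.20-fold (edgeR, adjusted p = 0.00321), and so did the GTPase gene Rac2 (adjusted p = 0.0118; 0.0619 without Abcc4-/- replicate 2). Without that library 2 of the 6 rose.

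For Ltb4r1, 6 genes of leukotriene synthesis, breakdown and reception were counted, among them Ltc4s, which makes leukotriene C4 and not B4. Ltc4s and Ltb4r2 were near the floor, with means of 0.47 and 0.82 CPM in Abcc4-/- and 0.53 and 0.91 CPM in WT. Of the 6 genes, 1 rose and 0 fell. That gene was Alox5, the lipoxygenase that starts leukotriene synthesis (log2 fold change 0.26, SE 0.06; edgeR, adjusted p = 0.0154). Alox5 lost its call without Abcc4-/- replicate 2 (adjusted p = 0.0806) and on the 3 TPM scales (0.0509 to 0.119). Among 6 tested inhibitors and receptors of the granule proteins, 3 rose and 1 fell. The metalloprotease inhibitor genes Timp2 and Reck rose by log2 fold changes of 0.42 and 0.59 (edgeR, adjusted p = 0.000935 and 0.000696), though Reck did not pass on log2(TPM + 1) or log2(TPM + 0.1) (adjusted p = 0.0660 and 0.0645), and the third was Fpr2, which also binds cathelicidin. Timp3 was the gene that fell, named after its value was seen (log2 fold change -0.77, SE 0.16; edgeR, adjusted p = 0.00673), and Timp1 had at most 7 counts in a library.

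Granulocyte transcription factor genes beside Cebpe were lower or did not pass. Of 8 tested, 0 rose and 3 fell, with a median log2 fold change of -0.08. Cebpb, which drives granulocyte output under stress, had 75.9 ± 0.956 CPM in Abcc4-/- and 134 ± 9.86 CPM in WT, a 1.77-fold decrease (edgeR, adjusted p = 7.26e-06). Runx1 fell 1.26-fold (adjusted p = 0.00576) and Cebpa, needed for entry into the granulocyte lineage, fell 1.13-fold (adjusted p = 0.0357). The Cebpa call was lost when any library but WT replicate 3 was left out (adjusted p = 0.05002 to 0.131) and on centred TPM (0.129).

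Of 11 mature neutrophil genes, 7 rose and 1 fell. S100a9 and S100a8, the subunits of calprotectin, had 10339 ± 330 and 8421 ± 355 CPM in Abcc4-/-, against 5995 ± 923 and 4646 ± 725 CPM in WT (edgeR, adjusted p = 0.000702 and 0.000537); neither passed on centred TPM (adjusted p = 0.0822 and 0.0541), where 4 of the 11 rose. Trem1, an activating receptor of neutrophils and monocytes, fell 2.85-fold (60.9 ± 4.03 CPM in Abcc4-/- and 174 ± 11.9 CPM in WT; edgeR, adjusted p = 5.24e-07). Of 9 proliferation genes 0 rose and 0 fell by edgeR (1 at an unadjusted p below 0.05; DESeq2 also called 0, and limma on log2(TPM + 1) called 1 lower); the mitotic checkpoint gene Bub1 had the smallest p (log2 fold change -0.13, SE 0.06; edgeR, adjusted p = 0.138).

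**Figure D5:**
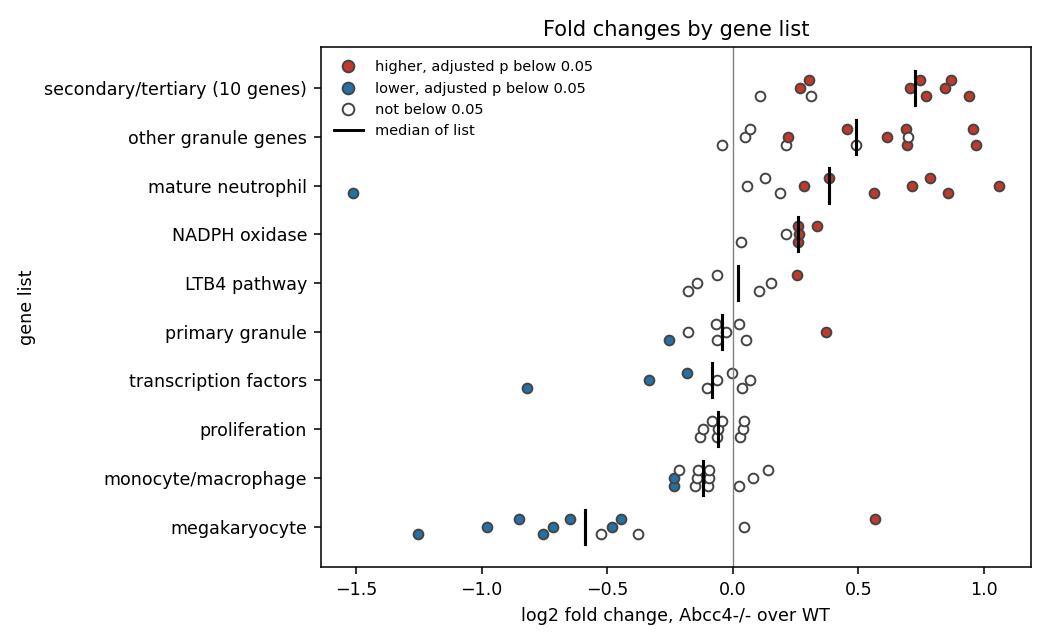
Log2 fold change of Abcc4-/- over WT for each tested gene of 10 lists; red and blue points passed an adjusted p of 0.05 and black bars are list medians. The secondary and tertiary granule genes have a median of 0.73, other granule genes 0.49, primary granule genes -0.04 and megakaryocyte markers -0.59.

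Markers of other cells were measured beside these changes, and their part in the result was not tested. Of 12 megakaryocyte and platelet markers, 8 fell and 1 rose, for example Vwf (13.5 ± 2.29 CPM in Abcc4-/- and 32.2 ± 4.07 CPM in WT; edgeR, adjusted p = 0.00201), Pf4 (log2 fold change -0.85, adjusted p = 0.00663) and Itga2b, the gene of CD41 (log2 fold change -0.72, adjusted p = 0.0106; 0.0667 without WT replicate 3 and 0.0504 with no filter on low counts). The marker that rose was Ppbp, named after its value was seen (log2 fold change 0.56, SE 0.15; edgeR, adjusted p = 0.0273); it did not pass without WT replicate 2 or 3 or Abcc4-/- replicate 2 or 3, on log2(TPM + 1) or log2(TPM + 0.1), or with thinned counts. The number that fell was 4 without Abcc4-/- replicate 1 and 5 without Abcc4-/- replicate 2, WT replicate 2 or WT replicate 3. Of 12 monocyte and macrophage markers, which matter for Chil3 and Cybb, 0 rose and 2 fell, and they summed to 3044 to 3425 CPM in Abcc4-/- and 3191 to 3597 CPM in WT, overlapping ranges. Those that fell were Csf1r and Adgre1 (log2 fold change -0.23 for each; edgeR, adjusted p = 0.0313 and 0.0482). Csf1r lost its call when Abcc4-/- replicate 1 or 3, or WT replicate 1, was left out (adjusted p = 0.0917 to 0.116), and Adgre1 without any library but WT replicate 2 (0.0652 to 0.143), by limma-voom (0.0606) and on the 3 TPM scales (0.0752 to 0.145).

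Of 8 eosinophil markers 0 rose and 3 fell (Siglecf, Epx and Prg2; edgeR, adjusted p = 0.00319, 0.0333 and 0.0482), with sums of 437 to 647 CPM in Abcc4-/- and 849 to 907 CPM in WT. Without any 1 WT library only 1 of the 3 passed (Epx 0.0990 to 0.108 and Prg2 0.123 to 0.142 then); Epx also failed without Abcc4-/- replicate 3 (0.0886) and Prg2 without replicate 2 (0.0838). With no filter on low counts neither passed (Epx 0.0888 and Prg2 0.152), and Prg2 did not pass on library totals (0.0515) or thinned counts (0.0534). Of 8 erythroid markers 2 rose (Klf1 and Epor, adjusted p = 0.0131 and 0.0224) and 0 fell, with sums of 529 to 770 CPM in Abcc4-/- and 681 to 735 CPM in WT. Epor lost its call when Abcc4-/- replicate 1 or 3, or WT replicate 2, was left out (0.0676 to 0.0791), and Klf1 without Abcc4-/- replicate 1 (0.0639). Without Abcc4-/- replicate 3, 2 of the 8 fell. On log2(TPM + 1) and log2(TPM + 0.1) 0 of the 8 rose (Klf1 0.0615 and 0.0591, Epor 0.207 and 0.217), and Epor did not pass on centred TPM (0.0741). In the B cell list 4 of 7 rose and 0 fell, led by Vpreb1, Cd79b and Cd79a (adjusted p = 0.000403, 0.00517 and 0.0113), with sums of 850 to 938 CPM in Abcc4-/- and 467 to 661 CPM in WT; Cd79a did not pass without WT replicate 3 (0.0611). In the T and NK cell list 6 of 8 rose and 0 fell, led by Cd3e, Lck and Cd3d (adjusted p = 3.64e-05, 0.00131 and 0.00196), with sums of 135 to 152 CPM in Abcc4-/- and 109 to 136 CPM in WT; without WT replicate 3, 1 of the 8 fell. No marker of these lists was at 0 in all libraries.

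Genes outside the group whose levels over the 6 libraries lay nearest the mean profile of the 10 were sought among 6200 genes of mean log2 CPM of at least 5, by the root mean square distance of centred log2 CPM. The nearest 5 were Olfml2b (distance 0.032), Fmo5 (0.038), Rhou (0.038), Adpgk (0.040) and Anxa1 (0.044). Anxa1 encodes annexin A1, an abundant neutrophil protein, and had 1093 ± 31.0 CPM in Abcc4-/- and 690 ± 55.3 CPM in WT (SD, n = 3 each). Ngp and Camp, the nearest of the 10 genes to their own mean, lay at 0.113 and 0.110. That mean averages genes of larger and smaller change, and none of the 10 had a log2 fold change between 0.31 (Cebpe) and 0.71 (Camp). The nearest 5 had log2 fold changes from 0.57 (Fmo5) to 0.66 (Rhou) and were picked as nearest among 6200 genes. Their smaller distances therefore cannot show that they follow the granule genes more closely than the 10 follow each other.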

How the data were processed

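Stranded mRNA libraries of total RNA were read from both ends, per the labels' protocols. The submitters' processing notes name STAR 2.7, RSEM 1.3.1 and mm10, and no annotation release. The authors deposited RSEM expected counts for each gene, without normalization, and TPM in a separate file; 92 spike-in rows, all at 0, were left out. Gene positions came from GENCODE M21 (GRCm38), which holds 55180 of the 55573 versioned identifiers, and promoters from RefSeq.

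The deposited expected counts were rounded, and all genes past the default filter entered the robust quasi-likelihood test of edgeR 4.0.16 in R 4.3.3, with TMM scaling. The SE is the log2 fold change over the root of its F statistic, and CPM used TMM library sizes. The alternatives were DESeq2 1.42.0, limma 3.58.1 on counts (voom) and on TPM, other filters and scalings, thinned counts, a replicate block, and each library left out in turn.

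Groups came from the genotype label and replicate numbers from the titles. The design text counts 3 mice in each group, but the sample labels name no animals. The p-values measure only how these samples differ, and the labels do not show whether that spread is between animals or technical. The members, lists and tests were chosen with earlier results of these data known. Genes named by rule are the members and up to 3 called genes of each list with the smallest p (the smallest p where none was called). The 5 genes nearest the members' profile complete the rule. Genes outside this rule were named with their values known, whether or not this is said beside them.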

Additional observations from a re-analysis of the deposited data

How the results depend on the processing

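Of 17 alternatives, each kept 0 of the 10 genes called lower and between 6 and 9 called higher: 6 by limma on log2(TPM + 1) and log2(TPM + 0.1), 9 by DESeq2 and with the replicate block. Ltf, Lcn2, Ngp, Mmp8 and Mmp9 kept their direction and call in all 17, and Cybb did not pass in any (log2 fold change 0.02 to 0.14). Camp, Chil3 and Ltb4r1 lost their call in 1, 7 and 3 of them, and Cebpe gained one in 3. The median log2 fold change of the 10 genes was between 0.61 (without WT replicate 3) and 0.80 with each library left out in turn. The number of genes called over the whole table was between 1760 (without Abcc4-/- replicate 2) and 2415 with each library left out, 1821 without Abcc4-/- replicate 1, and 1849 with centred TPM. Across the alternatives 48 list counts moved by over 1.5 times, or to or from 0, and 428 did not. None of the genes named by the rule reversed direction.

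The titles give both genotypes replicate numbers 1 to 3, but deviations of same-numbered libraries correlated at -0.05 to -0.01, so the numbers are not taken to pair the samples. With the replicate block 3157 genes and 9 of the 10 were called, and Cebpe passed (log2 fold change 0.32, adjusted p = 0.0232). In the same fit 2 of the 7 B cell markers were called higher, 1 of the 12 monocyte and macrophage markers lower and 2 of the 6 inhibitors and receptors lower, and Cd79a, Epx, Prg2 and Adgre1 did not pass (adjusted p = 0.105, 0.106, 0.157 and 0.0879). Counts of 2920 or more for each of the 10 genes in each library leave counting error small against the spread between libraries.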
